A study of Mus musculus with 4 samples.

Results

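Windows of 1 Mb along the mouse genome in which the H3K27ac contact counts of DBA/2J embryonic stem cells were clearly below those of C57BL/6J cells, outside chromosome 4, are described here. HiChIP joins DNA ends that lie close together in fixed nuclei and then enriches the joined fragments with an antibody, here against acetylation of histone H3 at lysine 27. The deposited table counts read pairs between pairs of anchors, which are intervals bounded by cutting sites of the enzyme DpnII. Each pair was placed in the window that holds the midpoint between its outer ends, the counts of each library were summed per window and divided by the library's total, and a window was taken where it held at least 1000 raw counts and the log2 ratio of the D2 mean to the B6 mean was under -0.6. This rule kept 73 of the 1310 windows off chromosome 4 with enough counts (5.57%), out of 1397 such windows on the 19 autosomes. The ratio between the strains chose the windows, so every ratio given for them is a description and carries no test.

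The B6 group was made of the C57BL/6J lines B6 4-1 (replicate 1) and B6 5-1 (replicate 2), and the D2 group of the DBA/2J lines D2 2-9 (replicate 1) and D2 5-5 (replicate 2), with 1 library from each line. All 4 lines were untreated embryonic stem cells in serum medium with LIF and the inhibitors PD0325901 and CHIR99021, fixed in the same way. In the library names, 10cyc appears for D2 replicate 1 and 8cyc for the other 3 libraries. With 2 lines per strain, the spread between replicates is the spread between 2 lines, and a feature of 1 line cannot be told apart from a feature of its strain beyond that spread.

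H3K27ac marks the nucleosomes around active start sites and active enhancers. Promoters fire in the company of such distal elements, which can fold back onto them over long distances, and cohesin and CTCF set the limits within which most of this contact takes place. Long stretches of chromatin can also be silenced together: in mouse embryonic stem cells, KRAB zinc finger proteins bring a corepressor and H3K9 methylation to repeats and to their own gene clusters, and such domains carry little H3K27ac. A count between anchors therefore depends both on the acetylation at each end and on how often the ends meet, and HiChIP alone does not separate these. It also depends on whether the reads can be placed on the genome assembly, and the part of this was not tested.

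The cutting sites give each anchor its ends, and the ends of 2 anchors with large losses of counts in D2 are shown first to place them, as 40 bases around each end on the plus strand of GRCm38 (mm10), with GATC, the DpnII site, in capitals. The first anchor is intergenic, chr6:136989081-137004806 near Pde6h. The second is intergenic, chr9:40624068-40646405 near Gm21915.
Chromosome 6 anchor, left end: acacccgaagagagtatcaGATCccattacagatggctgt
Chromosome 6 anchor, right end: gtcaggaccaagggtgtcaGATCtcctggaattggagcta
Chromosome 9 anchor, left end: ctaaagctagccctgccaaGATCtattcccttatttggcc
Chromosome 9 anchor, right end: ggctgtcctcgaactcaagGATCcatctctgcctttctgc
All 56562 anchors of the table began and ended at a GATC in this assembly.

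Promoters within low windows behaved differently from each other, and 7 of them are given as examples. The 250 bases before the start site are given from RefSeq, 5′ to 3′ on the strand of the gene, with each CG dinucleotide in capitals. Those of Zfp273 at chr13:67813566-67813815 (plus strand), Slc20a1 at chr2:129198523-129198772 (plus strand), Bcar3 at chr3:122483319-122483568 (plus strand) and Ckb at chr12:111672339-111672588 (minus strand) lie in anchors with some of the largest losses. The promoters of Emsy at chr7:98656578-98656827 (minus strand), Dcaf6 at chr1:165460464-165460713 (minus strand) and Nudt9 at chr5:104046614-104046863 (plus strand) lie in anchors of the same set of windows whose ratio was near or above 0.
Zfp273 promoter: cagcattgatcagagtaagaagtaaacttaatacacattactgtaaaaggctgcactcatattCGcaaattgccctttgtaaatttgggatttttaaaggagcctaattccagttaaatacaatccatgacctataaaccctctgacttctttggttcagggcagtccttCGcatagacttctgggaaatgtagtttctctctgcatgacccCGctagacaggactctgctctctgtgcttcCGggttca
Slc20a1 promoter: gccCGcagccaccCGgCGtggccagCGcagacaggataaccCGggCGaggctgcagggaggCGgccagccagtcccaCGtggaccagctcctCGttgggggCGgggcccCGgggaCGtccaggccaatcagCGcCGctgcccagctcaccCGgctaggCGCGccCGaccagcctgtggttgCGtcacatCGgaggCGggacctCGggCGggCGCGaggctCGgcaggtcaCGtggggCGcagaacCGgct
Bcar3 promoter: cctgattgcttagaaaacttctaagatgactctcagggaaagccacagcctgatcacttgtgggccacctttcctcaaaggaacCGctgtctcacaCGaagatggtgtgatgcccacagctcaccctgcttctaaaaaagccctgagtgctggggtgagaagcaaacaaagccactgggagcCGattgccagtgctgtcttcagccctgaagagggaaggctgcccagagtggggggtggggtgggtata
Ckb promoter: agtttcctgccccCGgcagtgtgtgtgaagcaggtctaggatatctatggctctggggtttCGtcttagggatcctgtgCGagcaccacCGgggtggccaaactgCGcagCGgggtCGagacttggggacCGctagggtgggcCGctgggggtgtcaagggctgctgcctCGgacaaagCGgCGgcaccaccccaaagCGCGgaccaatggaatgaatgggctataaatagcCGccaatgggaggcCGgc
Emsy promoter: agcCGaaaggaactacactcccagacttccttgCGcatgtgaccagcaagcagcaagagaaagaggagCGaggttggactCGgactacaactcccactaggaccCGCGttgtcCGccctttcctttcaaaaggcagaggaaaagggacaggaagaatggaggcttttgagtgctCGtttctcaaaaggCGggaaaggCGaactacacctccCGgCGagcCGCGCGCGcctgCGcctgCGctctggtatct
Dcaf6 promoter: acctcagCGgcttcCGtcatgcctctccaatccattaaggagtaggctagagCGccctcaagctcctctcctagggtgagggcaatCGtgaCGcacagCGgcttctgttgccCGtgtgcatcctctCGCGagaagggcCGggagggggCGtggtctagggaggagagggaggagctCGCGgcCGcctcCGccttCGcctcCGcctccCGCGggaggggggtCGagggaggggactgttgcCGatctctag
Nudt9 promoter: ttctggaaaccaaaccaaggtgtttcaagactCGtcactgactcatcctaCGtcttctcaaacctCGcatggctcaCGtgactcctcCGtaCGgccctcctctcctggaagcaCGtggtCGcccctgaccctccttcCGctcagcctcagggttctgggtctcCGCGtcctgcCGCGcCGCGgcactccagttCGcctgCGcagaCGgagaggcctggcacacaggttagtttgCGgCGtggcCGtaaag
The 250 bases held 4 CG dinucleotides in Zfp273, 29 in Slc20a1, 3 in Bcar3 and 16 in Ckb, against 18 in Emsy, 21 in Dcaf6 and 21 in Nudt9. These examples do not separate the groups. Among all promoters with an entry in the anchors named for the largest losses, the number ran from 3 (Bcar3) to 34 (Bag5). In the anchors named as closest to 0 or highest, it ran from 2 (Zbed3) to 21 (Dcaf6 and Nudt9). Over the 715 promoters of protein-coding genes in low windows with an entry, the median was 9 CG dinucleotides and 55.6% G+C, and over all 19143 such promoters it was 11 and 56.4%. The DpnII letters GATC, which read the same on both strands, were found in 39.7% of the promoters of low windows and in 39.9% of all, and the letters CACGTG, also the same on both strands, in 6.01% and 6.82%.

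The counts of a library summed to 2908329 (B6 replicate 1), 2800847 (B6 replicate 2), 2767882 (D2 replicate 1) and 2944258 (D2 replicate 2). Anchors over the start sites of embryonic stem cell markers held 7991 and 8105 counts in B6 and 10915 and 8162 in D2, summed over the 11 of 14 markers with an anchor, so the labelled cell type had its defining markers. D2 replicate 1 was the highest of the 4 in this sum. Anchors over markers of feeder fibroblasts held 30 to 44 counts per library (2 of 6 markers with an anchor), those of endoderm 116 to 138 (3 of 4), mesoderm 524 to 732 (4 of 4), neural cells 188 to 265 (3 of 3) and trophoblast 279 to 310 (2 of 3). Most of the mesoderm counts came from the Tbx6 anchor, with 409 and 324 in B6 and 461 and 486 in D2. No anchor covered a start site of the feeder genes Col1a1, Col1a2, Col3a1 and Twist2, nor of the stem cell genes Esrrb, Tfcp2l1 and Klf2, so these give no level. The part of other cell types in the window values was not tested.

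The 73 windows lay on 16 chromosomes. Chromosome 7 held the most, 12 of its 90 windows with enough counts, followed by chromosomes 2 and 8 with 7 each, chromosomes 6 and 12 with 6 each, and chromosome 19 with 5. No window came from chromosomes 15 and 16. For chromosome 4, which the rule leaves out, 8 of 87 windows were under the same threshold. The median log2 ratio over the 73 windows was -0.76 and the range -1.13 to -0.60, against a median of 0.05 for all windows off chromosome 4 with enough counts. In the opposite direction, 16 windows off chromosome 4 had a log2 ratio above 0.6. The windows held 4.49 and 4.68% of all counts in the B6 libraries and 2.70 and 2.74% in the D2 libraries, or 130620 and 131151 counts against 74871 and 80802.

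Both D2 libraries were below both B6 libraries in all 73 windows, which the rule nearly fixes, and this order was found in 27.8% of all windows with enough counts. The absolute log2 ratio between the D2 replicates had a median of 0.10 and reached 0.37, and that between the B6 replicates had a median of 0.07 and reached 0.33, beside medians of 0.09 and 0.07 in the other windows off chromosome 4. D2 replicate 2 was above D2 replicate 1 in 41 of the 73 windows, so neither D2 line alone was the lower one throughout. The windows nearest to the threshold inside it were chr19:22000001-23000000 (log2 -0.60, with 328 and 363 counts in B6 and 216 and 241 in D2) and the window from 37 to 38 Mb of chromosome 19. Just outside it were the windows at 135 Mb of chromosome 1 with -0.595 and at 37 Mb of chromosome 3 with -0.593.

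**Figure D1:**
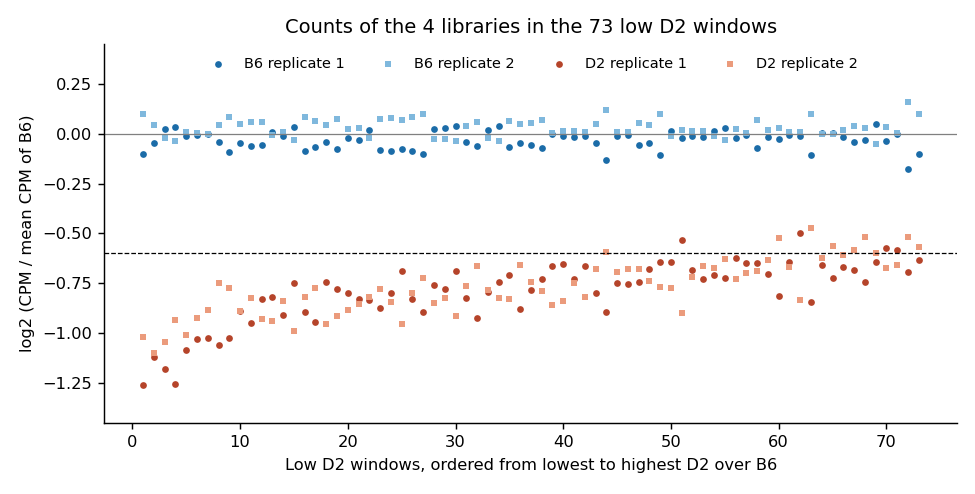
CPM in each of the 73 low D2 windows, as log2 relative to the mean of the B6 libraries of that window (vertical axis), with the windows ordered by the D2 to B6 ratio (horizontal axis); each symbol is 1 library and the dashed line is the threshold of the rule. D2 replicate 1 ran from -1.26 to -0.50 and D2 replicate 2 from -1.10 to -0.47, and the B6 libraries from -0.18 to 0.16.

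The windows formed 48 stretches, 33 of a single window and 15 runs of neighbouring windows that held 40 windows. There were 8 runs of 2 windows, 4 runs of 3 and 3 runs of 4. Runs are described below by chromosome, with CPM, the counts scaled to each library's total, for the 4 libraries in the order B6 replicate 1, B6 replicate 2, D2 replicate 1 and D2 replicate 2. An anchor or a pair of anchors is said to have fallen where edgeR's quasi-likelihood test over all anchors or all pairs gave a Benjamini-Hochberg adjusted p under 0.05. Of all 51820 anchors with at least 20 counts, 7.08% were called lower and 2.67% higher in D2, and of all 108034 pairs with at least 20 counts 0.957% and 0.492%. Since the windows were chosen by the same contrast, nothing is read from their counts of calls against these shares.

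The run with the most counts lay from 134 to 138 Mb of chromosome 6, with 3402, 3646, 2100 and 2049 CPM (log2 -0.76). It carried 39 protein-coding genes, among them Etv6, an ETS family repressor, Cdkn1b, an inhibitor of cell cycle kinases, Lrp6, a Wnt coreceptor, and Gprc5a, an orphan receptor induced by retinoic acid. Of its 155 anchors with at least 20 counts, 153 had a ratio below 0 and 96 fell. The anchor chr6:135062620-135089199 over the Gprc5a start site had 657 and 661 counts in B6 and 307 and 342 in D2 (log2 -1.02). Both D2 values were below both B6 values, and the anchor fell.

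The lowest part of that run was its last window, 137 to 138 Mb, at log2 -1.11, next to a window at -0.66. The intergenic anchor whose ends are printed above, chr6:136989081-137004806, spans the border and belongs by its midpoint to the window at -0.66. It had 362 and 368 counts in B6 and 72 and 92 in D2 (log2 -2.16). Its pair with the neighbouring intergenic anchor chr6:137005882-137020936, with midpoints 16.5 kb apart, had 74 and 70 counts in B6 and 7 and 5 in D2 (log2 -3.58), the lowest ratio among the pairs named for a window. A second anchor of this stretch, chr6:137098082-137119810, lies within a gene, has the start of Rerg, a RAS-like growth inhibitor, as its nearest protein-coding start, and had 321 and 371 counts in B6 and 100 and 125 in D2 (log2 -1.63). The anchor at chr6:136989081-137004806 was also paired with the histone genes H2afj and Hist4h4 over 187 kb, with 30 and 25 counts in B6 and 12 and 9 in D2. Just before the run, the window at 133 Mb had too few counts for the rule (419) and a log2 ratio of -1.67.

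On chromosome 8 the run from 33 to 37 Mb had 1646, 1765, 921 and 970 CPM (log2 -0.85). It included the lowest of the 73 windows, 35 to 36 Mb, with 646 and 715 counts in B6 and 276 and 347 in D2 (log2 -1.13). Genes of the run include Wrn, a RecQ helicase, Gsr, glutathione reductase, Dusp4, a MAP kinase phosphatase, and Tnks, tankyrase. The anchor chr8:33632720-33671648 over the start sites of Gsr and Ubxn8 had 642 and 674 counts in B6 and 362 and 355 in D2 (log2 -0.88). The Tnks anchor, chr8:34913228-34973761, had 492 and 454 against 265 and 305 (log2 -0.73). In the lowest window the anchor with the largest drop was intergenic, chr8:35119565-35125543, with 85 and 102 against 24 and 42 (log2 -1.52), and its pair with the Tnks anchor over 179 kb had 12 and 30 against 10 and 15 and was not called. In this run 116 of 118 anchors were below 0 and 67 fell.

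Chromosome 7 held 3 runs. The run from 63 to 67 Mb had 944, 1004, 577 and 546 CPM (log2 -0.79), and 94 of its 95 anchors were below 0 while 45 fell. The largest loss of its first window was at chr7:63882993-63965162, over the start sites of E030018B13Rik and Klf13, the latter a Krüppel-like repressor, with 713 and 741 counts in B6 and 458 and 442 in D2 (log2 -0.69). In the window from 63 to 64 Mb this anchor was involved in 78.9% of the lost counts, the largest share of a single anchor in any of the 73 windows, and the log2 ratio of that window without the pairs of this anchor was -0.74. The window after the run, at 67 Mb, had a log2 ratio of 0.04, so the run ended within 1 window.

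The second run of chromosome 7, from 41 to 44 Mb, had 1605, 1618, 858 and 871 CPM (log2 -0.90), and all 86 of its anchors were below 0, with 63 fallen. It holds zinc finger genes (Zfp936, Zfp976, Zfp719 and others), the Siglec lectins and the start of the kallikrein cluster. The Zfp936 anchor chr7:43161941-43190404 had 546 and 567 counts in B6 and 260 and 259 in D2 (log2 -1.10). A smaller Zfp936 anchor, chr7:43112107-43117115, had 66 and 76 against 5 and 13 (log2 -3.00). The Zfp976 anchor chr7:42616978-42644796 had 349 and 349 against 136 and 154 (log2 -1.27). The third run, from 97 to 99 Mb, had 1244, 1331, 817 and 787 CPM (log2 -0.68), with all 71 anchors below 0. There, the anchor of Aqp11, an intracellular aquaporin, chr7:97735772-97762233, had 523 and 582 against 237 and 283 (log2 -1.09), and its pair with an anchor within a gene near the start of Pak1, a RAC-activated kinase, had 69 and 56 against 26 and 31.

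**Figure D2:**
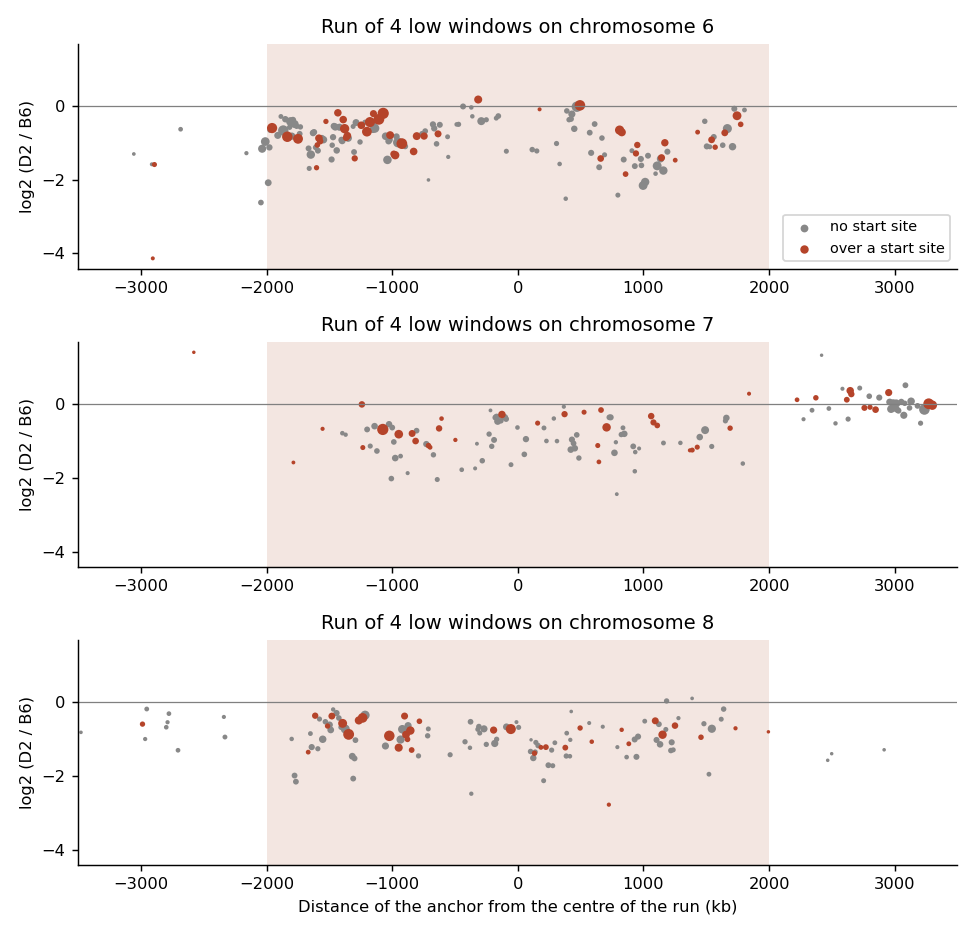
Log2 ratio of D2 to B6 (vertical axis) of each anchor with at least 20 counts against its distance from the centre of the run in kb (horizontal axis), for the 3 runs of 4 low windows, which are shaded; points grow with the anchor's counts, red points cover a start site, and 1 anchor of the chromosome 8 run with no D2 count is not drawn. Inside the runs the medians were -0.83, -0.95 and -0.92 for chromosomes 6, 7 and 8, and the anchors drawn outside them had medians of -1.31 (9 anchors), 0.01 (38) and -0.82 (13).

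On chromosome 19 the run from 22 to 25 Mb had 1617, 1681, 867 and 852 CPM (log2 -0.94). The window from 24 to 25 Mb was the lowest of it at -1.05, with 2837 and 2772 counts in B6 and 1284 and 1437 in D2, and all 47 of its anchors were below 0. Further left, the anchor chr19:23053319-23109157, whose nearest protein-coding start is Klf9, a Krüppel-like factor that responds to steroid hormones, had 765 and 826 against 609 and 452 (log2 -0.58), and it fell although its D2 replicates lay further apart than its B6 replicates. The run was bounded by windows at 0.30 before it and -0.12 after it.

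On chromosome 2 the run from 143 to 145 Mb had 1207, 1226, 599 and 648 CPM (log2 -0.96), the lowest ratio of the 15 runs, and all 58 of its anchors were below 0. The anchor chr2:144241069-144288869 covers the start sites of Mgme1, a mitochondrial DNA exonuclease, and Snx5, a sorting nexin, and had 831 and 819 counts in B6 and 476 and 466 in D2 (log2 -0.81). The other run of chromosome 2, from 128 to 130 Mb, had 1351, 1387, 871 and 833 CPM (log2 -0.68). Its Slc20a1 anchor, chr2:129192788-129220644, over a phosphate transporter gene, had 931 and 921 against 490 and 527 (log2 -0.87). The pair of that anchor with the adjoining chr2:129230991-129259590, over non-coding start sites, had 265 and 240 against 110 and 116 (log2 -1.16) and fell.

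On chromosome 3 the run from 121 to 124 Mb had 2082, 2288, 1210 and 1214 CPM (log2 -0.85), and 101 of 104 anchors were below 0 while 60 fell. The anchor of Bcar3, an SH2-domain adaptor, chr3:122456482-122500528, had 901 and 943 counts in B6 and 491 and 527 in D2 (log2 -0.86). An intergenic anchor near Slc44a3, chr3:121565964-121591720, had 630 and 708 against 343 and 420 (log2 -0.82). Both were among the larger losses in counts, but neither was the steepest ratio of the run, which was -2.88.

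On chromosome 17 the run from 83 to 85 Mb had 2186, 2216, 1259 and 1287 CPM (log2 -0.79), with 100 of 101 anchors below 0 and 71 fallen. The intergenic anchor near Mta3, chr17:83648583-83696096, lost the most counts of its window with 807 and 791 in B6 against 632 and 484 in D2 (log2 -0.51), and it was not called, the only anchor named for a window in this way that was not. Its D2 replicates were further apart than its B6 replicates. The Thada anchor, chr17:84346886-84377315, over the start of a Thada transcript that is not protein-coding, had 524 and 517 against 289 and 278 (log2 -0.88). Its pair with chr17:84309183-84315587 had 22 and 21 against 4 and 4 (log2 -2.43) and fell.

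On chromosome 1 the run from 164 to 167 Mb had 1438, 1408, 867 and 859 CPM (log2 -0.72). The anchor chr1:164480382-164509690, over non-coding start sites next to Atp1b1, a subunit of the sodium pump, had 504 and 483 counts in B6 and 241 and 230 in D2 (log2 -1.07). Its pair with the Atp1b1 start site, 41.5 kb away, had 205 and 194 against 100 and 73 (log2 -1.20) and fell. The anchor of Dusp27 and Gpa33, chr1:166120068-166162225, had 712 and 599 against 378 and 303 (log2 -0.94). Its pair with Pou2f1, the octamer-binding factor OCT1, had 101 and 84 against 62 and 48 and was not called.

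Chromosome 5 had a run from 23 to 25 Mb with 1802, 1868, 1150 and 1141 CPM (log2 -0.68). The anchor chr5:23764316-23790304 over Pus7, a pseudouridine synthase, and Rint1 had 438 and 418 counts in B6 and 215 and 228 in D2 (log2 -0.95). Chromosome 14 had a run from 11 to 13 Mb with 1294, 1369, 741 and 842 CPM (log2 -0.75), where the anchor of Ptprg, a receptor tyrosine phosphatase, chr14:11550350-11600066, had 824 and 832 against 504 and 557 (log2 -0.64). Chromosome 9 had a run from 40 to 42 Mb with 1106, 1174, 648 and 701 CPM (log2 -0.76). Its intergenic anchor near Gm21915, chr9:40624068-40646405, had 586 and 608 counts in B6 and 175 and 182 in D2 (log2 -1.74), with close counts in the 2 lines of each strain. Its pair with the Gm21915 start site had 191 and 182 against 51 and 59 (log2 -1.76). Without the pairs of the anchor that lost most counts, the window from 40 to 41 Mb went from -0.74 to -0.55, and this anchor was involved in 37.5% of the lost counts.

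The run of chromosome 12, from 24 to 26 Mb, had the fewest counts, with 494, 506, 230 and 285 CPM (log2 -0.96). It holds Rrm2, a subunit of ribonucleotide reductase, and Id2, an inhibitor of helix-loop-helix factors. The Rrm2 anchor chr12:24702811-24720703 fell, with a log2 ratio of -0.84 and both D2 libraries below both B6 libraries. The pair of the Id2 start site, chr12:25091032-25103113, with chr12:25137338-25151817 had 41 and 36 against 11 and 18 (log2 -1.42) and fell. This run was part of a longer low stretch, because other windows between 17 and 30 Mb missed only the count minimum. The window at 18 Mb had 240 and 224 counts in B6 and 27 and 43 in D2 (log2 -2.74), that at 20 Mb 347 and 324 against 80 and 111 (log2 -1.82), and that at 22 Mb 95 and 61 against 13 and 16 (log2 -2.43). These were lower than any window that the rule kept. The D2 replicates of the run differed by 0.31 on the log2 scale in the window at 24 Mb, among the larger gaps in the set.

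Of the 10 lowest windows, 8 were in runs and 2 stood alone. The first was chr17:42000001-43000000, with 486 and 453 counts in B6 and 201 and 235 in D2 (log2 -1.11). Here an intergenic anchor next to Cd2ap, which encodes an adaptor between receptors and actin, chr17:42898218-42911921, had 196 and 170 against 39 and 77 (log2 -1.67), and its pair with the Cd2ap start site had 44 and 41 against 14 and 10 (log2 -1.82). The second was chr11:57000001-58000000, with 1996 and 2170 counts in B6 and 995 and 1256 in D2 (log2 -0.89), a window of 6 protein-coding genes that include Hand1, a helix-loop-helix factor of trophoblast and heart. All 34 of its anchors were below 0 and 26 fell. Its largest loss lay at chr11:57947684-57988341, over non-coding start sites near Larp1, with 907 and 947 against 526 and 639 (log2 -0.68), although the pair of this anchor with the Larp1 start site had 245 and 266 against 190 and 215 and was not called.

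Within the windows, which were chosen on the same counts, bins and anchors shared the loss unevenly. Of 561 bins of 100 kb with at least 100 counts inside low windows, 555 (98.9%) had a log2 ratio below 0 and 392 (69.9%) were under -0.6. In other windows off chromosome 4 the shares were 46.0% and 3.88% of 10295 bins. In 67 of the 73 windows every such bin was below 0. The anchor with the largest drop was involved in a median of 25.7% of the lost counts of its window, and the 3 anchors with the largest drops in 50.1%. With the pairs of the first left out, 59 windows stayed under -0.6, and with those of all 3 left out 52 did, and in both cases all 73 stayed below 0. Without the 3 anchors, the window at 28 Mb of chromosome 3 went from -0.65 to -0.26, that at 104 Mb of chromosome 5 from -0.71 to -0.34 and that at 40 Mb of chromosome 9 from -0.74 to -0.34.

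Neighbouring windows were lower too, by less. The 58 windows with enough counts that flank a stretch had a median log2 ratio of -0.22, from -0.59 to 0.30, and 44 of them were below 0. Of all 1237 other windows off chromosome 4 with enough counts, these 58 included, 38.6% were below 0. Bins of 100 kb just outside an edge had a median of -0.63 (61 bins), those at 450 kb outside -0.39 (47 bins) and those at 950 kb outside -0.08 (44 bins). Just inside the edge the median was -0.65 (65 bins), and at 950 kb inside it was -0.91 (27 bins, all from runs). These medians pool all stretches, whose edges lie on the fixed grid of 1 Mb, and single edges could be abrupt, as at the chromosome 19 run.

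**Figure D3:**
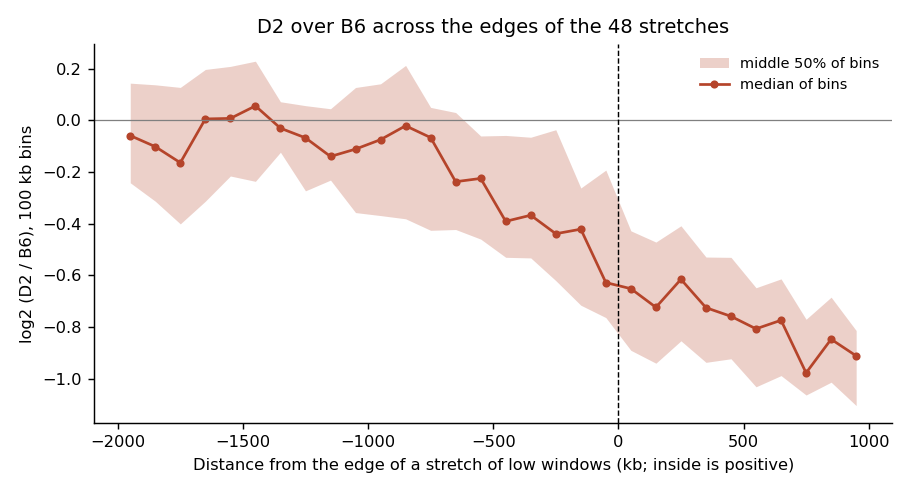
Log2 ratio of D2 to B6 in bins of 100 kb with at least 100 counts (vertical axis) against the distance of the bin from the edge of a stretch of low windows in kb (horizontal axis), over both edges of the 48 stretches; bins inside other low windows were left out on the outer side, and the band holds the middle 50% of bins. The median was -0.65 just inside the edge and -0.08 at 950 kb outside it.

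The low windows held 2521 anchors, of which 2432 had at least 20 counts and were tested. A ratio below 0 was found for 2360 of these (97.0%), against 53.7% of all anchors tested. Of the 2432, 1258 (51.7%) fell and 0 were called higher by edgeR's quasi-likelihood test, beside 7.08% lower and 2.67% higher over all anchors tested. At an unadjusted p under 0.05, 1 was higher, and DESeq2's Wald test also called 0 higher and 467 lower. Both D2 libraries were below both B6 libraries for 2091 anchors (86.0%), an order that 28.0% of all tested anchors had. The median log2 ratio was -0.80, with quartiles at -1.14 and -0.49, and it was -0.005 for the 46001 tested anchors of other windows off chromosome 4. Each of the 73 windows had at least 1 fallen anchor, and in 43 of them every tested anchor was below 0. The anchors that fell in these windows were 34.3% of all 3671 that fell in the genome. The rule used the same contrast, so these counts and shares describe the windows and nothing more is read from them.

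Some anchors had almost no counts in the D2 libraries. The genome assembly is that of the other strain. Whether D2 sequence that is missing or differs from this assembly lowered such counts was not tested. There were 82 anchors with a log2 ratio under -2, and 5 tested anchors had no D2 count at all. The one with the most counts in B6 among those with at most 1 D2 count was chr14:51836308-51842965, over a non-coding start site, with 70 and 74 counts in B6 and 0 and 1 in D2. Next came chr5:23829610-23832293, near Tomm7, with 44 and 46 against 0 and 1. An intergenic anchor of the window from 104 to 105 Mb of chromosome 5, chr5:104720596-104740554, had 269 and 280 counts in B6 and 7 and 8 in D2 (log2 -5.20), and the Zfp951 anchors beside it had 314 and 326 against 104 and 109 and 283 and 281 against 85 and 91. All 3 fell, as did both Zfp951 anchors.

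Anchors were of 4 kinds. Those over a start site of a protein-coding transcript had a median log2 ratio of -0.65 (536 tested anchors), those over another start site -0.84 (264), those within a gene -0.83 (966) and intergenic ones -0.91 (666). Anchors over any start site were at -0.71 and those over none at -0.86. In other windows off chromosome 4 the same 4 kinds stood at 0.09, -0.03, -0.04 and -0.04, so protein-coding start sites were the highest kind there as well. Within windows with at least 3 anchors of each sort, anchors over no start site had the lower median in 58 of 71 low windows, by a median of -0.15, and in 985 of 1186 other windows, by -0.11. A log2 ratio under -1 was reached by 17.9% of the protein-coding start-site anchors and by 41.9% of the intergenic anchors of low windows, and by 1.07% and 5.42% elsewhere. Anchors over protein-coding start sites were wider (median 6704 bp against 3612 bp for intergenic ones) and held more counts (median 374 against 156.5), so kind, width and depth moved together here, and the part of width and depth in the order of the kinds was not tested.

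**Figure D4:**
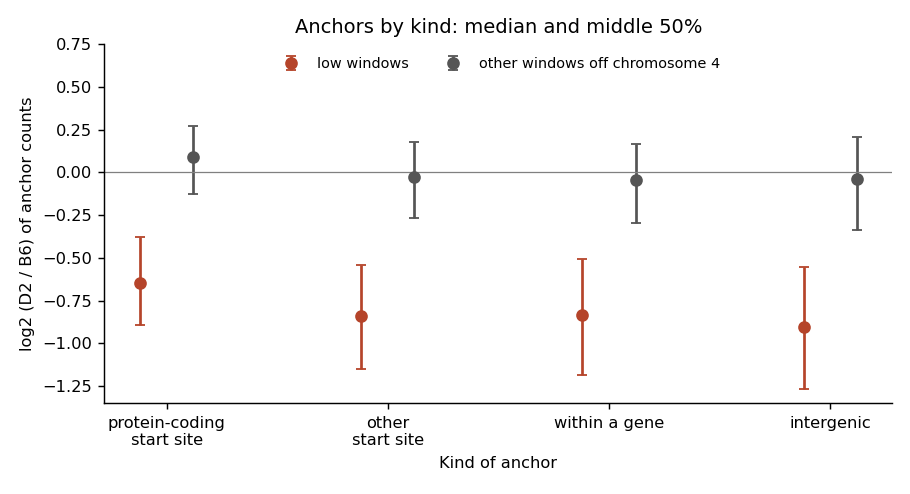
Log2 ratio of D2 to B6 of anchor counts (vertical axis) for 4 kinds of anchor (horizontal axis), in low D2 windows and in other windows off chromosome 4; points are medians over anchors with at least 20 counts and bars span the middle 50%. In low windows the medians ran from -0.65 at protein-coding start sites to -0.91 at intergenic anchors, and elsewhere from 0.09 to -0.04.

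The 10 promoter anchors with the largest losses included pairs of neighbours in the same window. The anchor chr12:111649755-111697516, over Ckb, the brain form of creatine kinase, and Trmt61a, a tRNA methyltransferase subunit, had 1626 and 1344 counts in B6 and 858 and 901 in D2 (log2 -0.75). Beside it, chr12:111702791-111734332, over Apopt1 and the cochaperone gene Bag5, had 1066 and 899 against 571 and 610 (log2 -0.73). In the window from 30 to 31 Mb of chromosome 7, chr7:30176823-30206163, over Capns1, the small calpain subunit, and Cox7a1, a subunit of cytochrome c oxidase, had 1377 and 1158 against 735 and 615 (log2 -0.90). In each of these 3 anchors the B6 libraries differed by more counts than the D2 libraries did, and both D2 libraries were below both B6 libraries.

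The same window of chromosome 7 held chr7:30070288-30103979, over Zfp260, Zfp566 and Zfp82, with 1271 and 1104 counts in B6 and 665 and 585 in D2 (log2 -0.92). On chromosome 13 the Zfp273 anchor, chr13:67783321-67818269, had 745 and 757 against 314 and 310 (log2 -1.27), the steepest ratio of the 10 promoter anchors with the largest losses. The anchor of Zfp429 and Zfp459, chr13:67397195-67439719, had 866 and 815 against 415 and 456 (log2 -0.95). The Ide anchor, chr19:37316724-37330987, over the gene of insulin-degrading enzyme, had 734 and 881 against 395 and 433 (log2 -0.97). Slc20a1 and Bcar3, given above, are also among the 10, and each of those named fell.

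Not every promoter in a low window was lower. Among promoter anchors with at least 100 counts in B6, the 5 closest to 0 covered Dcaf6 and Mpc2, the latter a subunit of the mitochondrial pyruvate carrier (100 and 83 counts in B6, 104 and 78 in D2), Emsy, a partner of BRCA2 (77 and 94 against 87 and 84), Gpr161, a receptor that restrains Hedgehog signalling, Otud7a, a deubiquitinase, and Ppm1b, a protein phosphatase. Ppm1b, at chr17:84952810-84971810, had 336 and 346 against 357 and 333 (log2 0.02) although its window stood at -0.79. The highest were Sirpa, the receptor for CD47 (121 and 135 against 176 and 138, log2 0.30), Cpeb3, an RNA-binding regulator of translation (142 and 157 against 170 and 187, log2 0.25), Nudt9, an ADP-ribose hydrolase (118 and 128 against 154 and 136, log2 0.24), Zbed3 (179 and 157 against 193 and 199, log2 0.22) and Usp53 (101 and 104 against 143 and 93, log2 0.21). None of these 10 was called in either direction, and scaled to library totals the strains overlapped in all of them except Cpeb3, Nudt9 and Zbed3. Over the 2432 tested anchors 72 were above 0, of which 24 covered a protein-coding start site.

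Pairs of anchors were lower as well. Anchor counts are sums over these same pairs, and the windows were chosen on them, so agreement between pairs and anchors is largely built in. In the low windows 3965 pairs had at least 20 counts, with a median log2 ratio of -0.70 against 0.11 in other windows off chromosome 4, and 3332 (84.0%) were below 0. Of these pairs 405 (10.2%) fell and 2 were called higher, 1 in the chromosome 5 run and 1 in the chromosome 7 run from 41 to 44 Mb. Over all tested pairs the shares were 0.957% lower and 0.492% higher, and nothing is read from the difference. DESeq2's Wald test called 33 of the pairs lower, and edgeR's test with 1 library left out called 138 without B6 replicate 1, 124 without B6 replicate 2, 205 without D2 replicate 1 and 286 without D2 replicate 2. The 405 were spread over 59 windows, made up 39.2% of all pairs that fell, and each had at least 1 end at a fallen anchor. Both D2 libraries were below both B6 libraries for 2303 pairs (58.1%), beside 17.9% of all tested pairs. The deposited list of each library gives a value per pair that is taken here as the authors' q-value, and under 0.01 the lists held 7277 and 7503 pairs of the low windows in B6 and 3849 and 4030 in D2, or 4.33 and 4.64% of all such pairs in B6 and 2.56 and 2.49% in D2.

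Counts between start sites were lowered least. Summed over all pairs of low windows, those with start sites at both ends had 39138 and 38653 counts in B6 and 25389 and 24902 in D2 (log2 -0.63). Those with a start site at 1 end had 59430 and 59802 against 33737 and 36961 (log2 -0.76), and those with none 32052 and 32696 against 15745 and 18939 (log2 -0.90). The same order, higher up, was found in other windows off chromosome 4, at 0.12, 0.02 and -0.06.

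The ratio was under -0.6 in every class of distance. The log2 ratio was -0.68 for pairs 5 to 20 kb apart, -0.71 for 20 to 50 kb, -0.71 for 50 to 200 kb, -0.85 for 200 to 500 kb and -0.80 for 500 kb to 2 Mb. Other windows off chromosome 4 ran from 0.12 at 20 to 50 kb to -0.12 at 500 kb to 2 Mb. The median distance of a count in the low windows was 126.1 ± 1.67 kb in B6 and 118.4 ± 4.83 kb in D2 (SD, n = 2), and 118.9 ± 0.548 kb and 106.7 ± 3.74 kb elsewhere (SD, n = 2). Both D2 libraries were shorter in both settings. Pairs with both anchors in low windows stood at -0.75, those with 1 anchor there at -0.65, and those with none at 0.05. Over at least 200 kb the values were -0.86, -0.68 and -0.06. The rule placed pairs by their midpoints, so part of the pairs with 1 anchor there also served to choose the windows. Of the counts that the rule placed in low windows, 85.6% had both anchors inside. No loss beyond the chosen counts is read from these values.

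The windows held 766 of the 16046 protein-coding genes in windows with enough counts off chromosome 4 (4.77%). Zinc finger genes, a list chosen by name that is mostly DNA-binding factors but also holds Zfp36l2, an RNA-binding protein, gave 52 of 381 (13.6%), in 11 windows. Olfactory, vomeronasal and trace amine receptors gave 18 of 643 (2.80%) and had no anchor over a start site. Of the histone genes with symbols that begin with Hist, 1 of 67 was included, Hist4h4. The histone gene H2afj, named above, is in a low window but outside this list. Of the Cyp genes 2 of 78 were included, Cyp26a1 and Cyp26c1, which break down retinoic acid. Of the Abcg transporters 3 of 5 were included, Abcg3, Abcg5 and Abcg8. No gene of the H2-, Serpin, Ugt, Gbp, Clec or Klr families and none of the 16 pluripotency genes in such windows was in a low window, and no Skint gene lay in a window with enough counts. No list was tested, and neighbouring genes of a family share a window and often an anchor.

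Start sites of these zinc finger genes lay in 52 tested anchors, a number equal to that of the genes by coincidence. Some genes had several anchors, some shared an anchor, and Zfp202 and Rslcan18 had no tested anchor in a low window. All 52 anchors had a ratio below 0, with a median of -0.71. Over all 531 anchors that cover a protein-coding gene of the low windows, 507 were below 0 and the median was -0.65. Of the 52, 33 fell, and of the 531, 248 fell, with nothing read from either count. The 24 anchors on chromosome 13 ran from -2.12 to -0.06, the 17 on chromosome 7 from -3.00 to -0.11, and the 7 on chromosome 8 from -1.06 to -0.05. In 48 of the 52 both D2 libraries were below both B6 libraries.

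Within 1 cluster the values differed widely. On chromosome 13, from 67 to 68 Mb (3934 and 3680 counts in B6, 2070 and 2222 in D2, log2 -0.83), the Zfp729b anchor chr13:67607545-67616457 had 204 and 181 counts in B6 and 38 and 51 in D2 (log2 -2.12). The Zfp874a anchor had 156 and 143 against 53 and 55 (log2 -1.47) and the Zfp759 anchor 81 and 64 against 22 and 31 (log2 -1.46). Close by, the Zfp457 anchor had 82 and 65 against 70 and 71 (log2 -0.06), with overlapping libraries. On chromosome 8, from 69 to 70 Mb, the Zfp868 anchor had 163 and 161 against 88 and 67 (log2 -1.06), and an anchor of Zfp866 and Atp13a1 had 245 and 225 against 224 and 231 (log2 -0.05). Neighbouring zinc finger promoters of the same cluster were thus lower by very different amounts.

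**Figure D5:**
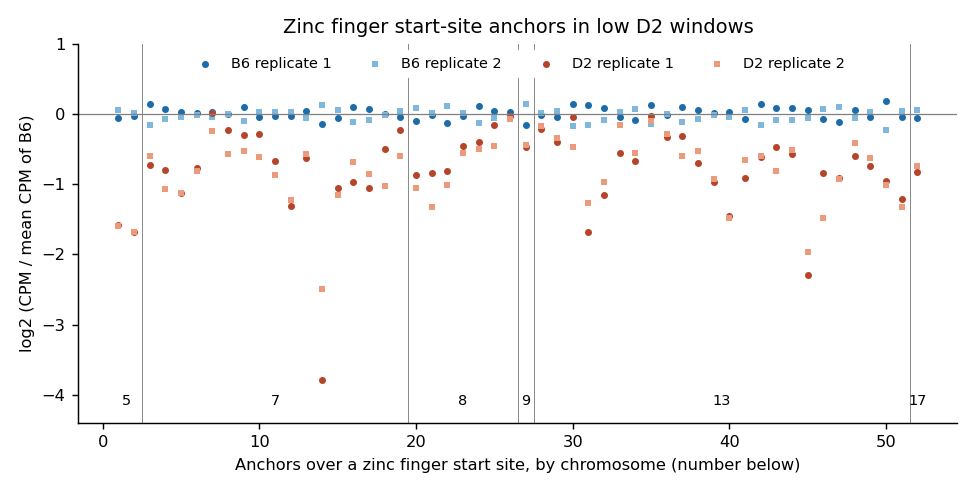
CPM of the 52 anchors over zinc finger start sites in low windows, as log2 relative to the mean of the B6 libraries (vertical axis), in genome order and grouped by chromosome (horizontal axis); each symbol is 1 library. On chromosome 7 the values of the lowest anchor averaged to a log2 ratio of -3.00, and in 48 of the 52 anchors both D2 libraries lay below both B6 libraries.

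Sequence features that the rule did not use had medians close to those of other windows. The median G+C content was 43.7%, as in the other 1237 windows off chromosome 4, with 9.98 and 9.99 CG dinucleotides per kb and 2.42 and 2.45 GATC sites per kb. Repeat-masked sequence covered a median of 28.6% of a low window and 29.4% of another window. A low window held a median of 8 protein-coding genes and 33 anchors, against 9 and 31, and 28.6% of its anchors covered a start site, against 33.3%. In this share of anchors over a start site, 48 of the 73 low windows were under the median of the others. The B6 level, which is part of the rule's ratio, was 498 CPM in the median low window and 466 CPM in the others.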

How the data were processed

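H3K27ac HiChIP was measured in 4 libraries, 2 lines each of C57BL/6J and DBA/2J. The submitters' processing notes name HiC-Pro 2.11.4, DESeq2 and the build mm10, an assembly of the C57BL/6J genome. Settings of the loop caller are not given in the sources used here. The authors deposited raw counts of read pairs per pair of anchors, and the deposited table gives the distance between anchor midpoints. The deposited lists of single libraries repeat these counts and hold an unnamed column that is taken here as a q-value.

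Counts were summed per window, per bin of 100 kb and per anchor with Python 3.11.15, pandas 2.3.3 and numpy 2.4.6. Log2 ratios compare the mean shares of library totals. Anchors and pairs with at least 20 counts were tested in R 4.3.3 with edgeR 4.0.16 (quasi-likelihood test, TMM scaling, Benjamini-Hochberg adjusted p under 0.05), and DESeq2 1.42.0 was an alternative. The fits were tested on simulated data. Library totals ran from 2767882 to 2944258 counts, and intervals from 2 lines per strain measure only the spread between these lines. Start sites came from GENCODE for mm10, and sequences from RefSeq tables and the GRCm38 genome.

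The members and lists were chosen with earlier results of these data known. Windows in runs of 2 or more and the 10 lowest windows were described singly, each by the anchor and the pair with the largest drop in mean CPM. Promoters named are the 10 with the largest drop and, among those with at least 100 counts in B6, the 5 nearest to 0 and the 5 with the highest ratio. A gene that these rules select is not reported here. Anchors with extreme ratios, zinc finger anchors and windows under the count minimum were named after their values were seen. Replicate numbers did not pair the lines: deviations of libraries with the same number had a correlation of 0.009 over anchors and -0.002 over pairs.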

Additional observations from a re-analysis of the deposited data

How the results depend on the processing

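The number of low windows, 73, ran from 67 to 78 with 1 library left out and was 45 when pairs under 20 counts were left out. The windows were not always the same. Of the 73, 58 stayed under -0.6 whichever library was left out, and 39 of the 45 were among the 73. Their median log2 ratio, -0.76, was -0.73 with TMM-scaled totals, -0.74 with at least 2000 counts per window, -0.79 for pairs under 200 kb, and -0.78 to -0.72 with 1 library left out. It was -0.73 and -0.69 without the pairs of the 1 or 3 anchors of largest drop per window, alternatives chosen after seeing the data. Over 657 values of single windows in 9 settings, 0 were at or above 0. These settings reuse the counts that chose the windows, so this outcome was largely fixed in advance.

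DESeq2 called 1307 of all anchors (238 higher, 1069 lower) where edgeR called 5054 (1383 higher, 3671 lower), and 81 of all pairs where edgeR called 1565. In low windows DESeq2 called 467 anchors and 33 pairs lower, where edgeR called 1258 and 405. With no count minimum edgeR called 2563 of all anchors, 759 of all pairs (463 higher, 296 lower) and 142 pairs of low windows. With 1 library left out, the calls ran from 2589 to 7660 for all anchors, 847 to 1137 for anchors of low windows, 325 to 2029 for all pairs and 124 to 286 for pairs of low windows. The 7660 came without D2 replicate 2, with 3819 higher and 3841 lower, and 6 anchors of low windows were then called higher.

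Anchors over a start site, at -0.71, were at -0.68 with TMM-scaled totals, -0.65 with protein-coding start sites alone, and -0.74 to -0.67 with 1 library left out; those over none, at -0.86, ran from -0.95 to -0.80 with 1 library left out. The replicate block gave 5903 calls over all anchors and 1343 over all pairs, and 1348 anchors and 366 pairs of low windows were lower.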
